A study of Homo sapiens with 18 samples.

Results

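The kinesins are a superfamily of microtubule motor proteins, most of them encoded by genes named KIF. The genes described here are all rows of the deposited gene tables whose symbol begins with KIF followed by a digit or by the letter C, leaving out the accessory proteins KIFAP3 and KIF1BP, and this rule found 42 genes of 23368 gene rows. By general knowledge of their function, 14 were placed in a mitotic group (spindle, chromosome and cytokinesis motors), 17 in a transport group (organelle, vesicle and neuronal cargo motors) and 11 in a group of other roles (cilium, centriole, signalling, or mixed). Messenger RNA was measured by sequencing in SJSA-1, an established human osteosarcoma cell line. The 6 groups of 3 libraries each were DMSO, the vehicle control, Nutlin (20 µM for 6 h), PD24 (10 µM PD0332991 for 24 h and then none for the last 6 h), PD30 (10 µM PD0332991 for 30 h), N+PD24 and N+PD30, in which the last 6 h of each PD0332991 schedule were spent with 20 µM Nutlin. Nutlin is an antagonist of MDM2 that stabilizes p53, and PD0332991 (Palbociclib) is an inhibitor of the kinases CDK4 and CDK6. Both target genes are amplified in this line. All groups come from this single line, so the comparisons hold for it only, and p-values measure the spread between the 3 libraries of each group, which the study calls biological triplicates.

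A kinesin turns the energy of ATP into steps along a microtubule, most of them towards the plus end. Mitotic kinesins slide spindle microtubules, depolymerize their ends, move chromosomes and build the midzone at which the cell divides. Many of them are made in G2 and mitosis, and their genes are known to be held down outside the cell cycle by the DREAM complex, which binds a promoter element called CHR, and to be raised by B-MYB and FOXM1. Transport kinesins carry organelles, vesicles and protein complexes in cells whether or not they divide.

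Levels are given as CPM, a gene's count scaled to a common library total. Changes are given as log2 fold changes with their standard error (SE), and a gene was called at a Benjamini-Hochberg adjusted p under 0.05 over all genes tested. Total counts ranged from 12704845 to 40231041 per library, with N+PD30 replicate 1 the shallowest. The markers of the line and the drugs were in place. MDM2 lay between 2509 and 2668 CPM in DMSO and between 19728 and 28174 CPM in Nutlin, and CDKN1A, the p53 target that encodes p21, between 143 and 219 CPM in DMSO and between 3859 and 4144 CPM in Nutlin. CDK4 lay between 1701 and 3160 CPM over all libraries. Of the osteoblast lineage genes, SPARC lay between 1398 and 2904 CPM and RUNX2 between 18.2 and 34.5 CPM. The blood cell genes PTPRC, CD3E and HBB reached 0.492 CPM at most, and the epithelial genes EPCAM and CDH1 reached 0.852 and 1.65 CPM.

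In DMSO, kinesin reads were divided almost evenly between the mitotic group (48.7% ± 1.27, SD, n = 3) and the transport group (47.0% ± 1.34). In Nutlin the mitotic share was 37.7% ± 3.23. It was 2.84% ± 0.312 in PD24, 2.78% ± 0.371 in PD30, 2.64% ± 0.458 in N+PD24 and 1.88% ± 0.133 in N+PD30. The summed level of the mitotic group was 1687 ± 75.9 CPM in DMSO, 826 ± 127 CPM in Nutlin and 50.3 ± 5.98 CPM in PD30. That of the transport group was 1626 ± 17.3 CPM in DMSO, 1271 ± 28.6 CPM in Nutlin and 1664 ± 62.6 CPM in PD30. The kinesin reads of a treated library were therefore almost wholly transport kinesins wherever PD0332991 had been given.

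**Figure D1:**
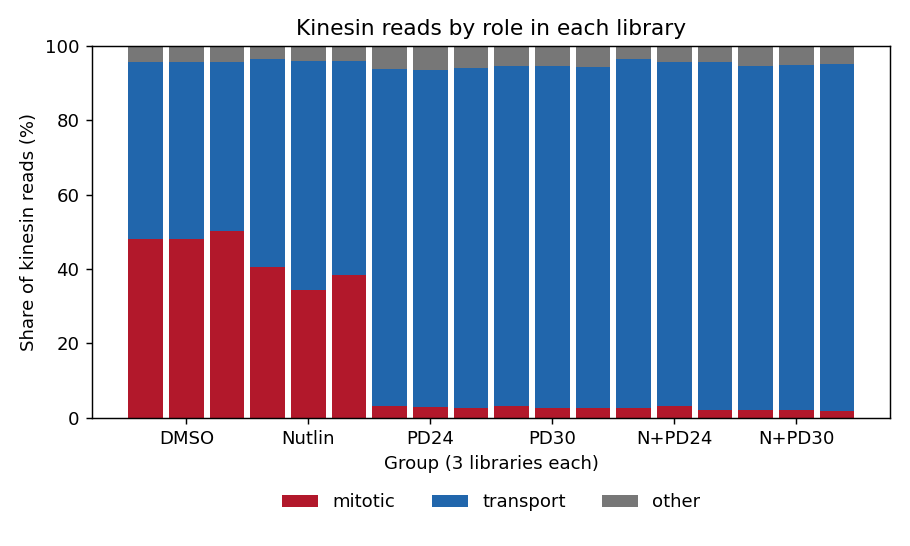
Share of all kinesin reads (%, vertical axis) taken by the mitotic (red), transport (blue) and other (grey) kinesins in each of the 3 libraries of each group. The red share is near 48.7% in DMSO, 37.7% in Nutlin and 2.84% or less on average in each group given PD0332991.

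Compared per kilobase of exon, the most abundant kinesin in DMSO was KIF5B, the ubiquitous heavy chain of conventional kinesin, at 106 CPM per kb. The mitotic kinesins KIF20A (68.4), KIFC1 (52.1), KIF2C (41.3), KIF11 (37.1), KIF4A (34.8) and KIF23 (34.4) followed. In PD30 the order was KIF5B (78.8), KIF1C (32.4) and KIF3B (26.3), and the first 9 places were held by transport kinesins. The 4 genes KIF2B, of the mitotic group, and KIF12, KIF19 and KIF25, of the others, reached at most 5 to 8 counts in any library and passed the filter on low counts in no comparison. The remaining 38 were tested in at least 1 comparison.

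With PD0332991 for 30 h, all 12 mitotic kinesins that could be tested were lower than in DMSO, with log2 fold changes from -7.03 to -3.43 (median -5.69, against 0.00202 over all 15125 genes tested). Over all genes, 25.4% were called lower and 22.9% higher, so that 52.5% of calls were lower (41.6% with quantile normalization). The groups did not overlap for any of the 12, against 28.7% of all genes with every PD30 library below DMSO and 28.5% with every one above, and the adjusted p-values ran from 1.68e-09 to 1.13e-07. Among the 17 transport kinesins 5 fell and 8 rose (median 0.29). Of the others tested, 2 were lower and 2 higher beside KIF26A, which passed the filter through the DMSO libraries alone.

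Among the spindle assembly motors, KIF11 (Eg5), which slides antiparallel microtubules to push the poles apart, had 183, 183 and 226 CPM in DMSO and 4.89, 3.75 and 3.86 CPM in PD30. Its log2 fold change was -5.59 ± 0.14. KIF15, which can stand in for KIF11 in keeping the spindle bipolar, went from 58.2, 64.8 and 74.6 CPM to 0.861, 0.361 and 0.511 CPM (-6.88 ± 0.22). KIFC1, a minus-end motor that focuses the poles and clusters extra centrosomes, went from 159, 158 and 156 CPM to 2.41, 1.86 and 1.96 CPM (-6.27 ± 0.11). All 3 were at a small fraction of their DMSO level in every PD30 library, at 2.11%, 0.877% and 1.32% on average.

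Of the motors that act on microtubule ends, KIF2C (MCAK), a depolymerase that frees wrongly attached chromosomes, went from 148, 152 and 151 CPM to 3.86, 2.67 and 2.07 CPM (-5.74 ± 0.18). KIF18B, which trims astral microtubules, fell furthest of all kinesins in this comparison, from 75.8, 67.7 and 75.3 CPM to 0.758, 0.584 and 0.369 CPM (-7.03 ± 0.18). Its paralog KIF18A, which damps chromosome movements at the metaphase plate, went from 43.3, 47.6 and 50.1 CPM to 3.44, 3.64 and 3.32 CPM (-3.77 ± 0.11). The paralogs thus kept different remainders, 0.781% of DMSO for KIF18B and 7.38% for KIF18A.

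The chromosome-bound motors KIF4A and KIF22 (Kid) also fell. KIF4A, which sets the length of midzone microtubules, had 152, 154 and 172 CPM in DMSO and 4.27, 3.09 and 2.38 CPM in PD30 (-5.64 ± 0.18). KIF22, which pushes chromosome arms away from the poles, had 123, 119 and 115 CPM in DMSO and 4.68, 4.84 and 2.92 CPM in PD30 (-4.86 ± 0.17). Among the cytokinesis motors, KIF20A (MKLP2), which brings the chromosomal passenger complex to the midzone, went from 273, 264 and 253 CPM to 2.93, 2.53 and 2.70 CPM (-6.62 ± 0.10). KIF14, a partner of citron kinase, went from 106, 113 and 122 CPM to 2, 1.25 and 1.99 CPM (-6.04 ± 0.16). KIF20B went from 99.2, 107 and 137 CPM to 4.72, 2.67 and 2.81 CPM (-5.11 ± 0.22). KIF23 (MKLP1), the motor subunit of centralspindlin, kept the largest remainder among the tested members of the group, 9.39% of DMSO, with 224, 213 and 241 CPM in DMSO and 22.3, 19.8 and 21.6 CPM in PD30 (-3.43 ± 0.09).

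**Figure D2:**
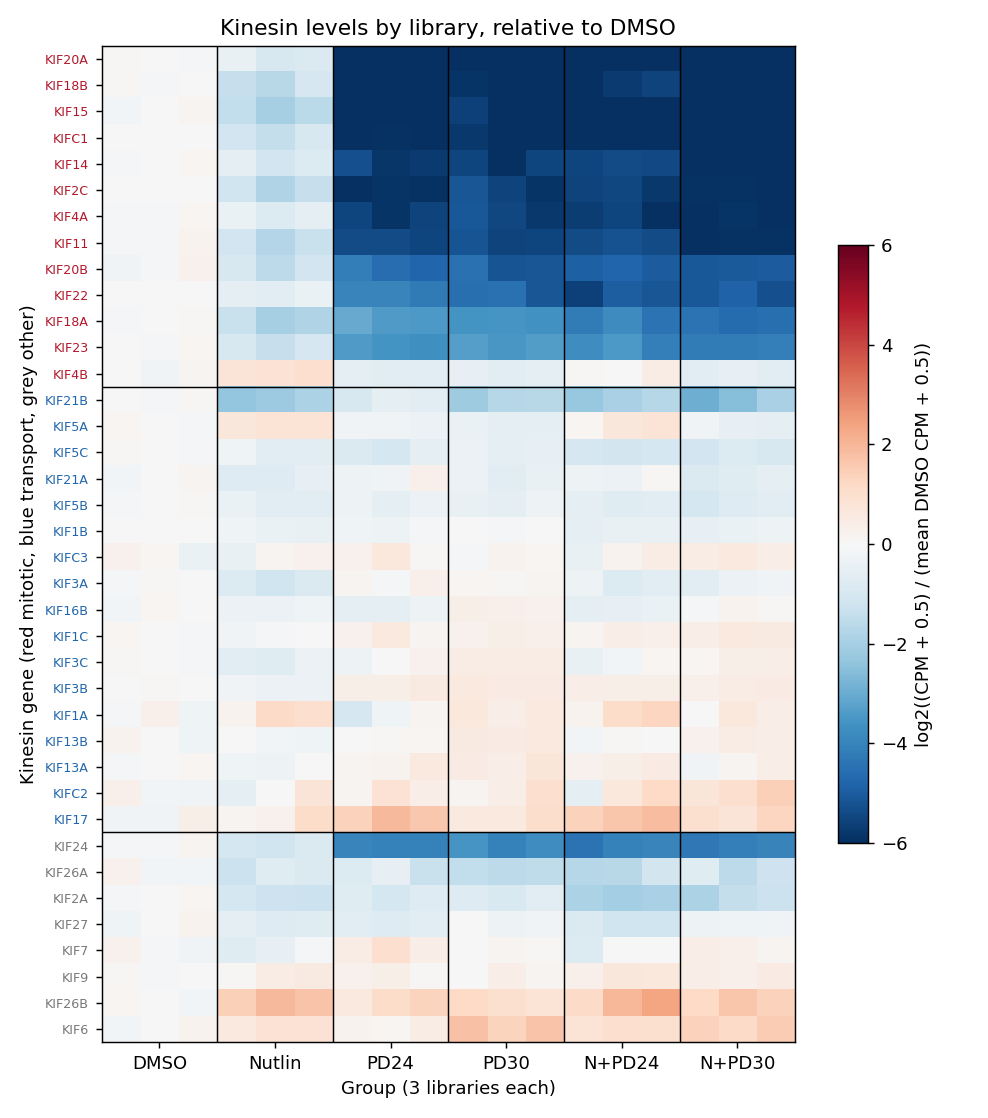
Level of each of the 38 tested kinesins (rows, ordered within each role by the change in PD30) in each library (columns, 3 per group), as log2 of CPM + 0.5 relative to the DMSO mean, with colours ending at 6 in either direction. The mitotic rows other than KIF4B are blue in every library with PD0332991 and paler blue in Nutlin, as is KIF24 at the top of the grey rows, and the transport rows stay near white apart mainly from KIF21B, KIF17, KIF5A, KIF1A and KIFC2.

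KIF24, a centriolar kinesin that restrains cilium assembly and was placed among the others, had 14.6, 14.6 and 17.3 CPM in DMSO and 0.895, 0.473 and 0.710 CPM in PD30, a log2 fold change of -4.51 ± 0.21 that lies within the range of the mitotic group. It overlaps UBAP1 on the opposite strand. KIF2A, a depolymerase used both at spindle poles and outside mitosis, fell by much less, from 88.3, 96.4 and 103 CPM to 55.3, 50.2 and 61.7 CPM (-0.80 ± 0.10). The proliferation genes MKI67 and CCNA2 moved with these motors, at 642 to 755 and 214 to 219 CPM in DMSO and at 4.43 to 6.61 and 3.95 to 5.34 CPM in PD30. In RNA from whole cultures, fewer cells in G2 and mitosis and less RNA per cell cannot be told apart.

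The promoters of the mitotic genes shared features that the choice of members had not used. Promoter sequences from RefSeq (GRCh38.p14, 250 bases before to 50 after the start) were found for 34 of the 42 genes, including all 14 mitotic ones. KIF13B, KIF19, KIF21B, KIF26B, KIF27, KIF5A, KIFC2 and KIFC3 had no entry. The letters TTTGAA, the core of the CHR element, were searched on both strands and were in 10 of 14 mitotic promoters (71.4%), in 1 of 12 transport promoters, in 0 of 8 others and in 15.4% of all 27305 promoters. The letters CCAAT were in 11 of 14 mitotic promoters, 3 of 12 transport promoters, 3 of 8 others and 35.7% of all. The E2F letters TTTCCCGC, TTTGGCGC, TTTGCCGC or TTTCGCGC were in 1 of 14, 0 of 12, 1 of 8 and 3.33%. The mitotic promoters without TTTGAA were those of KIF2B, KIF2C, KIF20A and KIF22. The letters are matches, not tested sites, and no other form of the CHR element was searched. A promoter without TTTGAA was therefore not shown to lack the element. KIF2C, KIF20A and KIF22, which lack those letters, had log2 fold changes of -5.74, -6.62 and -4.86.

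Promoters of 7 genes are shown from 170 bases before the start to 20 after it, with matches to the CHR and CCAAT letters in capitals, printed as their reverse complement where they lie on the opposite strand. KIF18B and KIF23 are shown as the mitotic members that fell most and least, KIF11 and KIF4A as typical ones, KIF4B as the near-copy of KIF4A, KIF24 as the member of the other group that fell with the mitotic ones, and KIF5B as the only transport promoter with both motifs.
KIF18B, chr17:44947754-44947943, minus strand: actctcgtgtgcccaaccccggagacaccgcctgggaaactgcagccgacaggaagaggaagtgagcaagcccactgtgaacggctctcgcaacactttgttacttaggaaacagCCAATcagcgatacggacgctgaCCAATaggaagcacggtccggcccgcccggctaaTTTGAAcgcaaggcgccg
KIF23, chr15:69414179-69414368, plus strand: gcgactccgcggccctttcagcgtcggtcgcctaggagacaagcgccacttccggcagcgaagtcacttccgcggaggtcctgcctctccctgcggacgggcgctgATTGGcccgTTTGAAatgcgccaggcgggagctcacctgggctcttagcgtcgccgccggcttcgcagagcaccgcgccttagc
KIF11, chr10:92592960-92593149, plus strand: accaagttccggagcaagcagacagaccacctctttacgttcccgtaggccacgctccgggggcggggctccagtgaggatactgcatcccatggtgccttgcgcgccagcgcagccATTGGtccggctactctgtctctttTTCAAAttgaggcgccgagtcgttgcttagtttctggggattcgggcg
KIF4A, chrX:70289934-70290123, plus strand: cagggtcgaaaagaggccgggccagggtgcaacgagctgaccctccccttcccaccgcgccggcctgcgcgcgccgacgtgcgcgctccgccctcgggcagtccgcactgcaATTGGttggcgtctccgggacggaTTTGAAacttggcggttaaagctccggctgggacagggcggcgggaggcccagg
KIF4B, chr5:155013585-155013774, plus strand: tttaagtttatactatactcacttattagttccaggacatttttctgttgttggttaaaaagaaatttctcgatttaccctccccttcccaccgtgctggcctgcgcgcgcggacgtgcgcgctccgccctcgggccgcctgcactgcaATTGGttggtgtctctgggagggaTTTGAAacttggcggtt
KIF24, chr9:34329249-34329438, minus strand: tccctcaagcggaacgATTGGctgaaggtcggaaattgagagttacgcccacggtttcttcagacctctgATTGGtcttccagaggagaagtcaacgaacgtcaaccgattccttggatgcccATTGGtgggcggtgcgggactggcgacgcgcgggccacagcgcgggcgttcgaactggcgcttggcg
KIF5B, chr10:32056406-32056595, minus strand: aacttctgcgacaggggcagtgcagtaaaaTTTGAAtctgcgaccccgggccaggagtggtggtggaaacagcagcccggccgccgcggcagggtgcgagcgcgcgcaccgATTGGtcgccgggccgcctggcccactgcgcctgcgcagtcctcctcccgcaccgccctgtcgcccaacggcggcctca

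In KIF11 and KIF4A a CCAAT match lay 25 and 24 bases before the CHR match, counted from first base to first base, and in KIF18B the nearer of the CCAAT matches lay 34 bases before it. In KIF23 the distance was 9 bases. In KIF5B, whose level fell only to 75% of DMSO, the CHR match lay 140 bases before the start and 81 bases from the CCAAT match, on its other side. KIF24 held 3 CCAAT matches and no TTTGAA. The windows of KIF4A and KIF4B matched without gaps over 144 bases, 135 of them identical (93.8%), and the paired motifs lie within that stretch.

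Among the transport kinesins in PD30, the conventional kinesin-1 heavy chains were all lower. KIF5B had 592, 610 and 657 CPM in DMSO and 453, 431 and 503 CPM in PD30 (-0.44 ± 0.08, adjusted p = 0.00161). The neuronal paralogs KIF5C, at 32.9, 32.5 and 30.0 CPM against 24.6, 20.7 and 22.2 CPM, and KIF5A, at 13.4, 12.1 and 11.3 CPM against 9.13, 8.12 and 8.32 CPM, had log2 fold changes of -0.52 ± 0.10 and -0.54 ± 0.12. The groups did not overlap for any of the 3, and KIF5A lost its call with quantile normalization (-0.27, adjusted p = 0.0793). KIF21A was lower as well (-0.49 ± 0.12). KIF21B, a motor of neurons and lymphocytes, fell further than any other transport kinesin, from 22.1, 20.2 and 23.0 CPM to 4.58, 6.20 and 6.59 CPM (-1.92 ± 0.15, adjusted p = 7.41e-06).

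The heterotrimeric kinesin-2 motor, which drives transport into cilia, changed in parts. KIF3B rose from 111, 117 and 111 CPM to 169, 157 and 157 CPM (0.49 ± 0.07), and KIF3C from 26.4, 25.1 and 24.4 CPM to 34.2, 34.6 and 34.7 CPM (0.43 ± 0.09). KIF3A did not pass the test (0.11 ± 0.09, adjusted p = 0.345). The homodimeric kinesin-2 KIF17 rose from 6.82, 6.80 and 10.4 CPM to 12.2, 12.2 and 17.3 CPM (0.78 ± 0.20, adjusted p = 0.0109). Of the kinesin-3 family, which carries vesicles and endosomes, KIF13A (0.53 ± 0.10), KIF13B (0.52 ± 0.12), KIF1A (0.64 ± 0.22), KIF1C (0.30 ± 0.09) and KIF16B (0.29 ± 0.10) were higher, whereas KIF1B did not change detectably (-0.02 ± 0.07). The minus-end motors KIFC2 (0.59 ± 0.25) and KIFC3 (0.06 ± 0.16) did not pass the test. KIF1A lost its call without DMSO replicate 1 or 3 or PD30 replicate 1 or 3 (adjusted p up to 0.106), KIF16B without DMSO replicate 1 or 3 or PD30 replicate 1 or 2 (up to 0.139), and KIF1C without DMSO replicate 2 or 3 or PD30 replicate 2 (up to 0.0675).

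**Figure D3:**
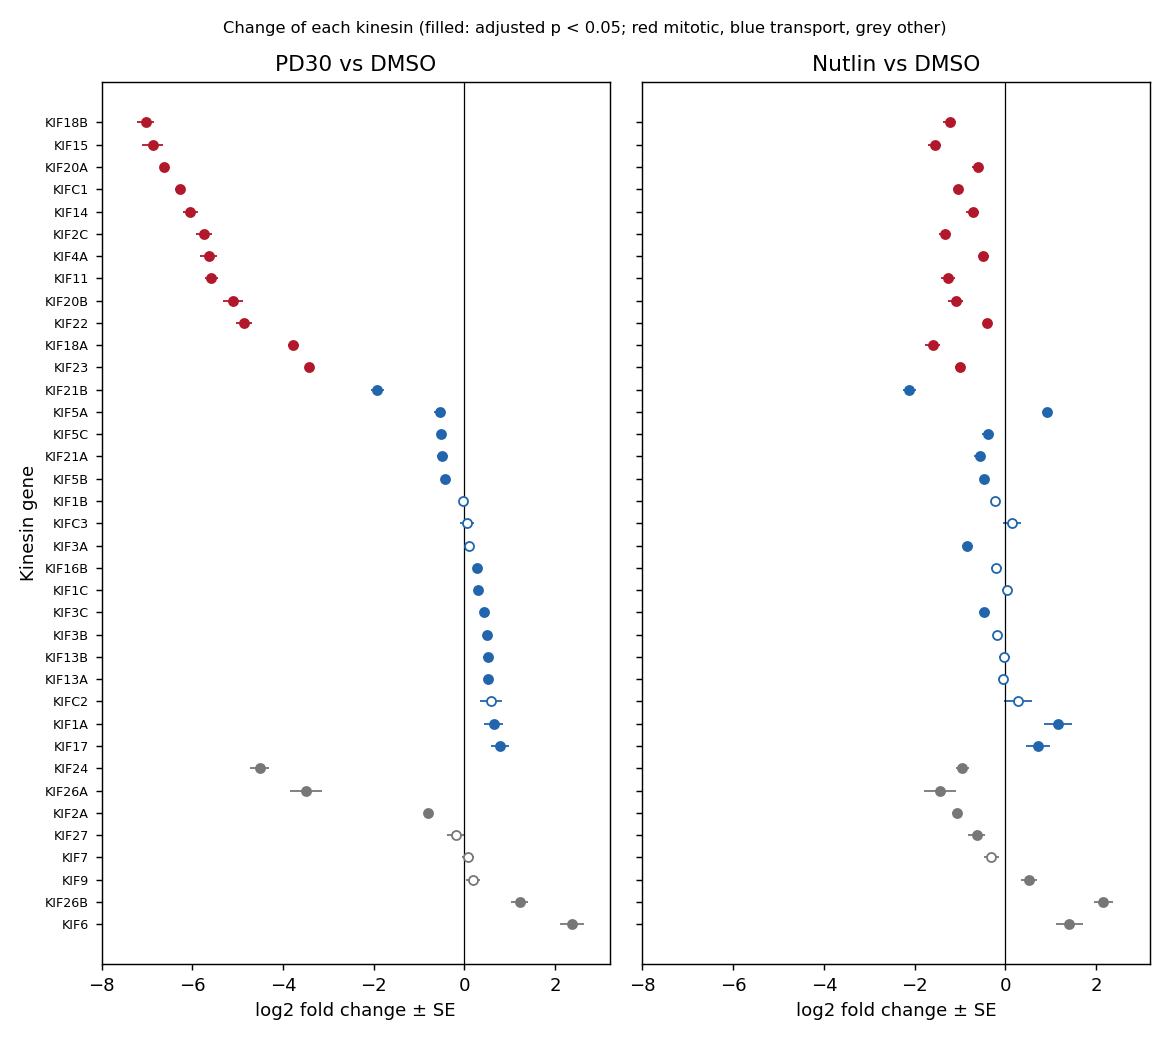
Log2 fold change ± SE (horizontal axis) of each kinesin tested in PD30 against DMSO (left) and the same genes in Nutlin against DMSO (right), red mitotic, blue transport, grey other, filled where the adjusted p was under 0.05. The red points lie between -7.03 and -3.43 on the left and between -1.60 and -0.40 on the right, and KIF5A lies below 0 on the left and above it on the right.

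The remaining kinesins with large changes in PD30 were lowly expressed. KIF6, found in motile cilia, rose from 0.364, 0.451 and 0.614 CPM to 2.82, 1.95 and 2.73 CPM (2.37 ± 0.27, adjusted p = 8.34e-05). KIF26B, an atypical kinesin of Wnt5a-Ror signalling, rose from 1.51, 1.39 and 1.16 CPM to 3.69, 3.09 and 2.81 CPM (1.21 ± 0.20), and the groups did not overlap for either gene. Its paralog KIF26A had 54, 31 and 33 counts in DMSO and 4, 3 and 4 counts in PD30, a ratio of summed counts to DMSO of 0.0863 (95% exact interval 0.0419 to 0.16, counting error only). It passed the filter on low counts through the DMSO libraries alone, so a difference was built into its being tested.

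The partner genes were counted in the same comparison, in which 25.4% of all genes were called lower and 22.9% higher. Of the spindle and midzone partners, 22 of 22 tested were lower in PD30 (median -4.96), from MAPRE1 (-0.29 ± 0.07) to the spindle pole gene ASPM (-6.69 ± 0.19). The kinetochore motor CENPE, a kinesin whose symbol the rule does not match, was at -6.27 ± 0.17. AURKB, the passenger kinase that KIF20A carries, was at -6.63 ± 0.13. RACGAP1, the other subunit of centralspindlin, was at -4.69 ± 0.12. Of the cargo adaptors and activators, 2 of 21 were lower and 9 higher (median 0.22), led by MAPK8IP2 (1.11 ± 0.19), MAPK8IP3 (0.75 ± 0.23) and the kinesin light chain KLC4 (0.66 ± 0.14) on the higher side and by FEZ1 (-0.56 ± 0.13) and KIFAP3 (-0.30 ± 0.09), the third subunit of kinesin-2, on the lower. Of cytoplasmic dynein and dynactin, the minus-end counterpart of the kinesins, 5 of 16 were lower and 4 higher (median 0.00548), from DYNC1LI1 (-0.66 ± 0.08) to DYNLRB1 (0.46 ± 0.08). Of the lists' 61 members 59 were measured, KNSTRN and KIF1BP being absent.

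In PD24, in which PD0332991 was removed 6 h before harvest, the 12 tested mitotic kinesins were lower than in DMSO, from -7.36 (KIF18B) to -3.40 (KIF18A), with a median of -5.89. KIF15 and KIF18B passed the filter there through the DMSO libraries alone. Over all genes 20.8% were called lower and 17.5% higher, so that 54.4% of calls were lower (43.99% with quantile normalization). KIF11 had 4.28, 4.26 and 3.85 CPM and KIF20A 1.43, 2.02 and 2.39 CPM, against at least 183 and 253 CPM in DMSO. KIF24 fell as well (-4.97 ± 0.19). Of the transport kinesins 4 were lower and 2 higher. KIF5C (-0.81 ± 0.13), KIF21B (-0.71 ± 0.14), KIF16B (-0.44 ± 0.13) and KIF5B (-0.39 ± 0.10) were the lower ones. KIF17 rose from at most 10.4 CPM in DMSO to 21.9, 32.1 and 26.0 CPM (1.76 ± 0.21, adjusted p = 0.000293), and KIF3B rose by 0.43 ± 0.09. With the replicate number as a block, KIF1C (0.37, adjusted p = 0.0154), KIF13A (0.34, adjusted p = 0.0151) and KIFC3 (0.38, adjusted p = 0.0217) passed as well, and 45.0% of all genes were then called in either direction. Of the others, KIF26B (1.32 ± 0.26) and the Hedgehog regulator KIF7 (0.67 ± 0.20) were higher, and KIF2A (-0.83 ± 0.11) and KIF27 (-0.76 ± 0.18) were lower. KIF26A, which passed the filter through the DMSO libraries alone, had 15, 18 and 8 counts in PD24, 0.345 of the DMSO rate (95% exact interval 0.236 to 0.496). KIF16B lost its call without DMSO replicate 2 or 3 or PD24 replicate 1 (adjusted p up to 0.11) and KIF7 without DMSO replicate 2 or 3 or PD24 replicate 2 (up to 0.0885).

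With Nutlin alone for 6 h, the 12 mitotic kinesins tested other than KIF4B were lower than in DMSO, from -1.60 (KIF18A) to -0.40 (KIF22), with a median of -1.07, and 7 of them fell by more than 1. Over all genes 28.0% were called lower and 26.6% higher. KIF18A had 18, 11.4 and 13.1 CPM in Nutlin, KIF15 23.7, 16.3 and 21.5 CPM (-1.56 ± 0.15), KIF11 90.1, 57.5 and 78.6 CPM (-1.26 ± 0.15) and KIF2C 64.4, 43.3 and 58 CPM (-1.32 ± 0.13). KIF20A (191, 137 and 145 CPM, -0.61 ± 0.13), KIF4A (119, 88.9 and 105 CPM, -0.48 ± 0.11) and KIF22 (81.2, 75.4 and 91.7 CPM, -0.40 ± 0.09) fell least. Nutlin replicate 2 had the lowest level of each of these 7, and every Nutlin library lay below every DMSO library, as was so for 38.5% of all genes, with 23.3% the other way. KIF18B (-1.23 ± 0.14), KIF20B (-1.09 ± 0.17), KIFC1 (-1.04 ± 0.11), KIF23 (-0.995 ± 0.11) and KIF14 (-0.72 ± 0.13) lay between them. KIF24 (-0.95 ± 0.14) and KIF2A (-1.07 ± 0.11) fell as well. MKI67 and CCNA2 lay at 199 to 293 and 79.1 to 98.1 CPM in Nutlin. Of the spindle and midzone partners 16 of 22 were lower and 0 higher (median -0.61), of the cargo adaptors 2 of 21 were lower and 3 higher, and of dynein and dynactin 2 of 16 were lower and 4 higher.

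KIF4B, an intronless near-copy of KIF4A, had 10, 5 and 12 counts in DMSO and 26, 28 and 29 counts in Nutlin, 3.25 of the DMSO rate (95% exact interval 2.08 to 5.23). It passed the filter through the Nutlin libraries alone, so a difference was built into its being tested. The copies are near-identical and short reads can be assigned to either, so its level is uncertain. In PD30 it had 2, 0 and 1 counts, 0.103 of the DMSO rate (95% exact interval 0.02 to 0.334), and was not tested there.

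Of the transport kinesins, 6 of 17 were lower in Nutlin and 3 higher (median -0.18), when 28.0% of all genes were called lower and 26.6% higher. KIF21B fell from at least 20.2 CPM to 4.03, 4.40 and 5.42 CPM (-2.12 ± 0.14, adjusted p = 3.62e-06), the largest fall of any tested kinesin in this comparison. KIF3A fell from 41.8, 47.9 and 46.7 CPM to 25.6, 19.7 and 24.5 CPM (-0.84 ± 0.12), and KIF3C from 26.4, 25.1 and 24.4 CPM to 15.6, 15.3 and 19.6 CPM (-0.46 ± 0.12), while KIF3B did not pass the test (-0.18 ± 0.09, adjusted p = 0.109). KIF21A (-0.56 ± 0.12), KIF5B (-0.47 ± 0.10) and KIF5C (-0.38 ± 0.13) were the other lower ones. KIF5A rose from 13.4, 12.1 and 11.3 CPM to 19.9, 22.0 and 21.8 CPM (0.92 ± 0.12, adjusted p = 0.000154), against the direction of the other kinesin-1 genes. KIF1A, the carrier of synaptic vesicle precursors, had 1.64, 2.22 and 1.36 CPM in DMSO and 2.13, 4.50 and 4.05 CPM in Nutlin (1.16 ± 0.30), with overlapping groups. KIF17 was higher as well (0.71 ± 0.26), with groups that also overlapped. Of the others, KIF26B rose to 4.52, 6.59 and 5.6 CPM (2.16 ± 0.21), KIF6 to 0.95, 1.3 and 1.25 CPM (1.41 ± 0.29), and KIF9 by 0.52 ± 0.17. KIF27 was lower (-0.63 ± 0.19). KIF26A, which passed the filter through the DMSO libraries alone, had 37 counts in the 3 Nutlin libraries together, 0.332 of the DMSO rate (95% exact interval 0.223 to 0.484).

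Some of these calls depended on a setting or a library. KIF17 lost its call without DMSO replicate 1 or 2 or Nutlin replicate 3 (adjusted p up to 0.171) and with scaling by total counts (0.59, adjusted p = 0.0953). KIF5C lost it without DMSO replicate 1 or 2 or Nutlin replicate 2 or 3 (up to 0.118), KIF9 without DMSO replicate 2 or 3 or Nutlin replicate 2 or 3 (up to 0.0924), and KIF27 without DMSO replicate 3 or Nutlin replicate 2 (up to 0.0597). Over all genes, scaling by total counts moved the median change in Nutlin by -0.126, and 63.3% of all calls were then lower, against 51.3% here.

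KIF5A lies at chr12:57939809-57980416 on the plus strand (GRCh37), 161 kb before CDK4, which is amplified in this line. Its first bases overlap DCTN2, a dynactin subunit read from the opposite strand. DCTN2 lay at 2849 to 3047 CPM in DMSO and 2533 to 2654 CPM in Nutlin, and its log2 fold change in Nutlin was -0.06 ± 0.09 (adjusted p = 0.59). Whether reads of DCTN2 enter the KIF5A count was not tested.

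**Figure D4:**
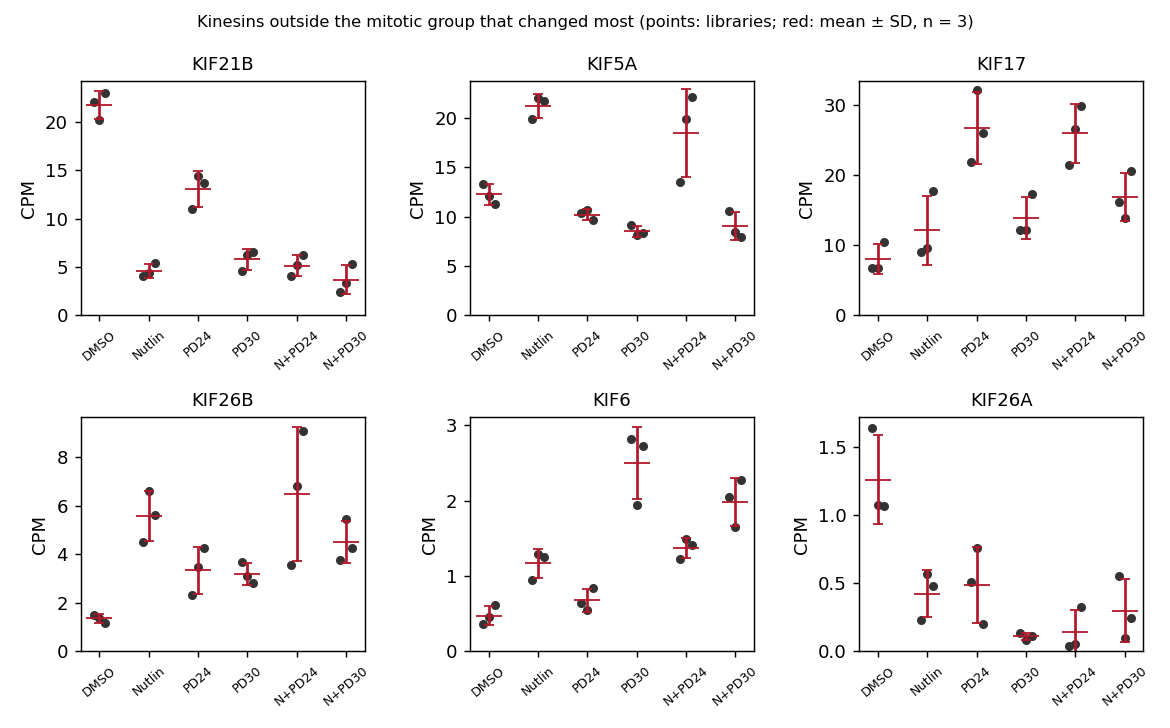
CPM (vertical axis, starting at 0) of 6 kinesins outside the mitotic group in the 6 groups, with a point per library and the mean ± SD (n = 3) in red. KIF21B is highest in DMSO, KIF5A is high in Nutlin and N+PD24 alone, KIF17 is highest in PD24 and N+PD24, and KIF6 is highest on average in PD30.

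Against Nutlin alone, N+PD30 had lower levels of the 12 mitotic kinesins tested other than KIF4B, from -7.03 (KIF18B) to -3.13 (KIF23), with a median of -5.51. KIF15, KIF18B, KIF4B and KIF24 passed the filter there through the Nutlin libraries alone. Over all genes 24.7% were called lower and 24.3% higher. KIF18B had 840, 681 and 971 counts in Nutlin and 1, 7 and 6 counts in N+PD30. KIF11 had 1.73, 2.79 and 2.71 CPM in N+PD30, and KIF20A 2.28, 1.81 and 2.18 CPM, below every Nutlin library. KIF4B had 2 counts in the 3 N+PD30 libraries together, 0.0335 of the Nutlin rate (95% exact interval 0.00399 to 0.125). KIF24 was at -4.15 ± 0.25. Of the transport kinesins 2 were lower and 7 higher. KIF5A had 10.6, 8.50 and 7.94 CPM in N+PD30, below every Nutlin library (-1.28 ± 0.17, adjusted p = 0.000138), and KIF5C was lower (-0.52 ± 0.16). The higher ones were KIFC2 (0.94 ± 0.31), KIF3C (0.86 ± 0.14), KIF3B (0.67 ± 0.11), KIF1C (0.56 ± 0.11), KIF3A (0.53 ± 0.15), KIF13B (0.47 ± 0.12) and KIF16B (0.37 ± 0.13). Of the others, KIF7 (0.69 ± 0.16) and KIF6 (0.71 ± 0.26) were higher. KIF16B lost its call without any 1 of the Nutlin libraries or N+PD30 replicate 2 (adjusted p up to 0.19), KIF6 without any 1 of the Nutlin libraries or N+PD30 replicate 1 or 3 (up to 0.125), KIFC2 without Nutlin replicate 1 or 2 or N+PD30 replicate 3 (up to 0.0791), and KIF5C without Nutlin replicate 1 or N+PD30 replicate 1 (up to 0.0841). KIF3A lost it without Nutlin replicate 2 (0.0616) and KIF13B without N+PD30 replicate 2 (0.0531).

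In N+PD24 the 12 mitotic kinesins other than KIF4B were lower than in Nutlin, from -6.01 (KIF20A) to -2.38 (KIF18A), with a median of -4.57. KIF15, KIF18B, KIF4B and KIF24 again passed the filter through the Nutlin libraries alone. Over all genes 19.6% were called lower and 15.6% higher, so that 55.7% of calls were lower (45.1% with quantile normalization). This comparison was made on log2(CPM + 0.5), which understates the change of genes near 0. KIF20A had 2.17, 1.92 and 1.59 CPM and KIF11 4.30, 4.82 and 4.33 CPM in N+PD24. KIF4B had 8, 10 and 16 counts, 0.403 of the Nutlin rate (95% exact interval 0.262 to 0.608). Of the transport kinesins, KIF5C was lower (-0.50 ± 0.15) and 6 were higher, namely KIF17 (1.15 ± 0.22), KIF3B (0.69 ± 0.11), KIF13A (0.59 ± 0.11), KIF21A (0.52 ± 0.14), KIF3C (0.46 ± 0.15) and KIF1C (0.42 ± 0.10). KIF5A had 13.5, 20.0 and 22.1 CPM, which overlapped Nutlin (-0.19 ± 0.16, adjusted p = 0.404). KIF24 (-3.10 ± 0.18) and KIF2A (-0.75 ± 0.13) were lower. With the replicate number as a block, KIF3A (0.38, adjusted p = 0.00244), KIFC2 (0.39, adjusted p = 0.0112) and KIF27 (-0.38, adjusted p = 0.0371) passed as well, and 54.3% of all genes were then called in either direction. That limma fit gave KIF20A an adjusted p of 1.42e-29, against 1.23e-08 without the block. A value this small cannot rest on 3 libraries per group alone, so the blocked p-values of this comparison do not measure that spread. KIF3C and KIF5C lost their calls without Nutlin replicate 1 or 2 or N+PD24 replicate 2 or 3 (adjusted p up to 0.136 and 0.107), and KIF21A without Nutlin replicate 2 or N+PD24 replicate 3 (up to 0.0615). Without either of the last libraries, 4 transport kinesins were called, against 7.

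The comparison of PD24 with PD30 asks what 6 h without PD0332991 changed. Of 12 mitotic kinesins tested 1, KIF22, was higher in PD24, with 7.13, 7.21 and 5.82 CPM against 4.68, 4.84 and 2.92 CPM (0.73 ± 0.22, adjusted p = 0.0394), and 0 were lower by edgeR's test, 0 at an unadjusted p under 0.05 and 0 by DESeq2 (median -0.13). KIF15 and KIF18B passed the filter through the PD30 libraries alone. Over all genes 12.2% were called lower and 12.9% higher. The call of KIF22 was lost without PD24 replicate 1 or 2 or PD30 replicate 1 or 3 (adjusted p up to 0.106). KIF11 differed by 0.02 ± 0.18, KIF14 by 0.11 ± 0.27 and KIF2C by -0.54 ± 0.26. With the replicate number as a block KIF20B was higher too (0.51, adjusted p = 0.03), and 40.3% of all genes were called in either direction.

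Of the 17 transport kinesins 4 were called, 2 lower and 2 higher, when 12.2% of all genes were called lower and 12.9% higher. KIF21B was higher in PD24, with 11, 14.5 and 13.7 CPM against at most 6.59 CPM in PD30 (1.21 ± 0.19, adjusted p = 0.0022), and lay between PD30 and DMSO. KIF17 was higher too, at 21.9, 32.1 and 26.0 CPM against at most 17.3 CPM (0.98 ± 0.19, adjusted p = 0.00654). KIF16B (18.8, 19.3 and 22.4 CPM against 35.4, 34.2 and 33.4 CPM, -0.73 ± 0.12) and KIF13B (-0.44 ± 0.09) were lower. KIF6, at 0.645, 0.548 and 0.845 CPM against 2.82, 1.95 and 2.73 CPM, was lower (-1.81 ± 0.26) and overlapped its DMSO level. KIF27 was lower (-0.56 ± 0.18) and KIF7 higher (0.59 ± 0.18), each with a call that was lost without 1 library, for KIF27 any 1 of the 6 (adjusted p up to 0.187) and for KIF7 any but PD24 replicate 3 (up to 0.121). With the replicate number as a block, 8 transport kinesins passed, when 40.3% of all genes did, the added ones being KIF1A (-1.04, adjusted p = 0.0251), KIF21A (0.45, adjusted p = 0.0241), KIFC3 (0.29, adjusted p = 0.0383) and KIF3C (-0.42, adjusted p = 0.0216).

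**Figure D5:**
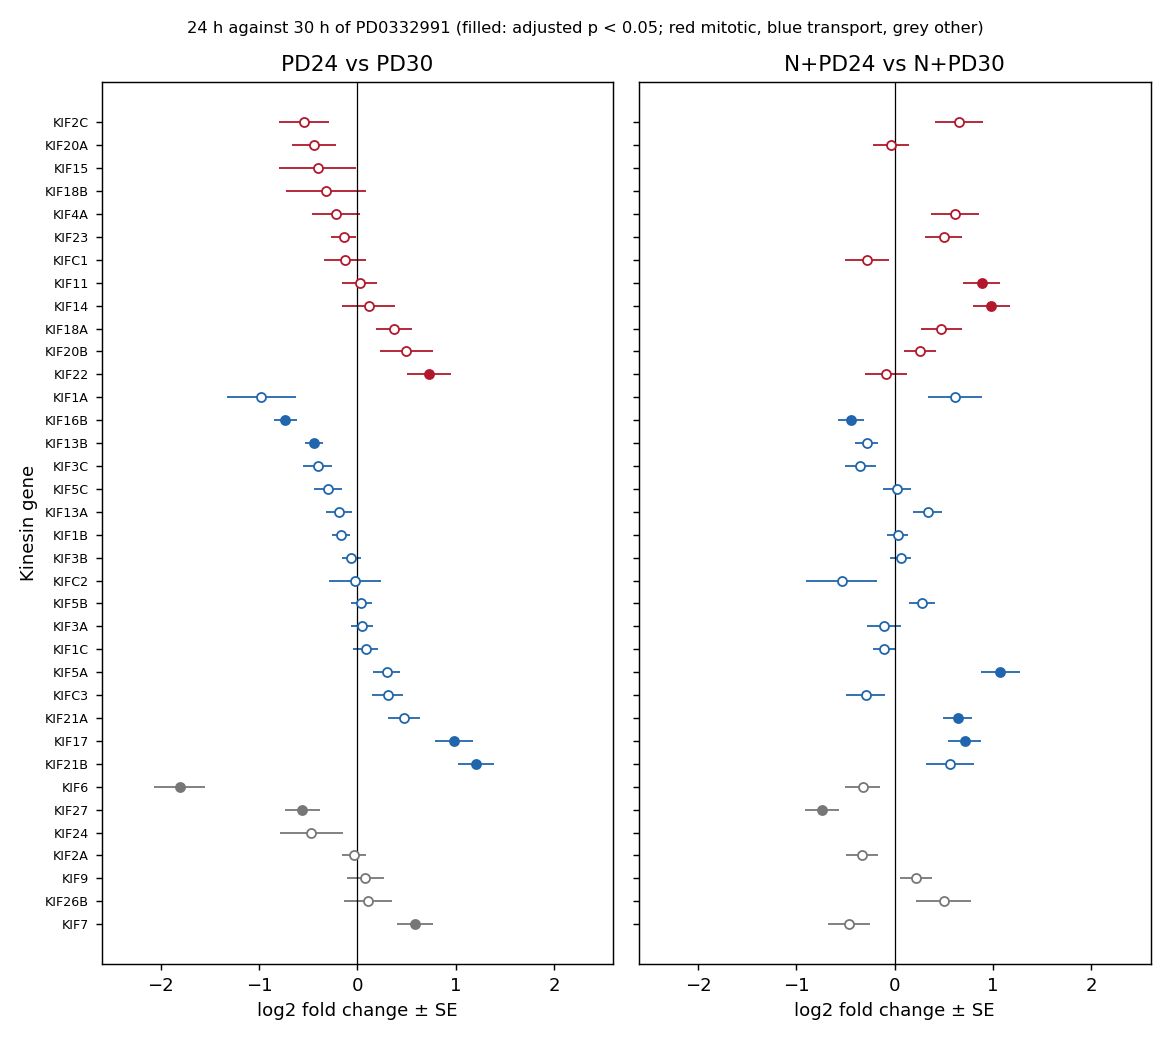
Log2 fold change ± SE (horizontal axis) of each kinesin in PD24 against PD30 (left, edgeR) and in N+PD24 against N+PD30 (right, limma on log2(CPM + 0.5)), red mitotic, blue transport, grey other, filled where the adjusted p was under 0.05, with no point where a gene was not tested. The filled red points are KIF22 on the left and KIF11 and KIF14 on the right, KIF17 is filled on both sides, and KIF21B (1.21) and KIF5A (1.07) are the highest blue points.

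With Nutlin present in the last 6 h, N+PD24 against N+PD30, 2 of 10 mitotic kinesins tested were higher and 0 lower by limma's test (median 0.49). At an unadjusted p under 0.05, 6 were higher and 0 lower, and DESeq2 called 0 lower. The share of all genes at that unadjusted threshold was not counted, so the 6 cannot be set against it. KIF4B, KIF15 and KIF18B did not pass the filter of the limma test. KIF4B had 34 summed counts against 2, a ratio of 12.1 (95% exact interval 3.09 to 104, counting error only). KIF18B had 6, 33 and 29 counts against 1, 7 and 6, and KIF15 had 5, 16 and 10 against 4, 13 and 5. Over all genes 17.0% were called lower and 15.5% higher. KIF11 had 4.30, 4.82 and 4.33 CPM against 1.73, 2.79 and 2.71 CPM (0.88 ± 0.19, adjusted p = 0.00684), and KIF14 had 2.01, 2.30 and 2.13 CPM against 0.630, 0.941 and 1.21 CPM (0.98 ± 0.19, adjusted p = 0.00407). KIF23 did not pass (0.50 ± 0.19, adjusted p = 0.0661). Both called motors remained at 2.27% and 1.89% of their DMSO level. Among transport kinesins, KIF5A (1.07 ± 0.20, adjusted p = 0.00313), KIF17 (0.71 ± 0.17) and KIF21A (0.64 ± 0.15) were higher and KIF16B was lower (-0.45 ± 0.13), as was KIF27 of the others (-0.74 ± 0.18). N+PD24 replicate 1, at 13.5 CPM, lay below the other replicates for KIF5A but above all N+PD30 libraries. DCTN2 was lower in N+PD24 than in N+PD30 (-0.41 ± 0.12). KIF16B lost its call without any 1 of the N+PD24 libraries or N+PD30 replicate 2 (adjusted p up to 0.147), KIF17 without N+PD30 replicate 2 (0.0604) and KIF27 without N+PD24 replicate 2 (0.0531). Without N+PD30 replicate 2, 2 transport kinesins were called, against 4. Scaling by total counts made 63.2% of all calls lower, against 52.3% here.

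The comparison of N+PD30 with PD30 asks what Nutlin changed once PD0332991 had been given. Of the mitotic kinesins, KIF18A (1.73, 1.41 and 1.55 CPM against 3.44, 3.64 and 3.32 CPM, -1.08 ± 0.19, adjusted p = 0.00945) and KIF23 (11.7, 12.1 and 12.8 CPM against 22.3, 19.8 and 21.6 CPM, -0.71 ± 0.11, adjusted p = 0.00665) were lower. Over all genes 5.64% were called lower and 8.84% higher. All 12 estimates were negative, with a median of -0.70, and 10 of them did not pass the test. Over all 15077 genes tested, 7634 estimates were negative and the median was -0.00584. KIF15, KIF18B and KIF24 passed the filter through the PD30 libraries alone. Of the transport kinesins KIF3A (-0.42 ± 0.12) and KIF1B (-0.30 ± 0.08) were lower and KIFC3 higher (0.49 ± 0.11), and of the others KIF2A was lower (-0.66 ± 0.14). With the replicate number as a block, 5 mitotic kinesins were lower, adding KIF2C (-0.68, adjusted p = 0.0401), KIFC1 (-0.68, adjusted p = 0.0497) and KIF4A (-0.84, adjusted p = 0.0425), and 10 transport kinesins passed in place of 3, when 29.0% of all genes were called in either direction. The 7 added were KIF21B (-0.59, adjusted p = 0.0364), KIF5B (-0.32, adjusted p = 0.0324), KIF5C (-0.39, adjusted p = 0.0448), KIF13A (-0.31, adjusted p = 0.0487), KIF17 (0.37, adjusted p = 0.0434), KIF1C (0.29, adjusted p = 0.0304) and KIFC2 (0.65, adjusted p = 0.00975), and KIF26B passed among the others (0.61, adjusted p = 0.0364). KIF18A lost its call without N+PD30 replicate 2 (-0.998, adjusted p = 0.0591), which left 1 mitotic call. KIF2A and KIFC3 lost theirs without PD30 replicate 1 or 3 or N+PD30 replicate 2 (adjusted p up to 0.0807 and 0.112), KIF3A without any library but N+PD30 replicate 3 (up to 0.15) and KIF1B without any 1 of the 6 (up to 0.161). Without PD30 replicate 1 or N+PD30 replicate 2, 0 transport kinesins were called. Scaling by total counts made 56.2% of all calls lower, against 38.9% here.

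Whether the response to Nutlin differed with PD0332991 present was tested by an interaction term over the 12 libraries of DMSO, Nutlin, PD30 and N+PD30. It was called for 7 of the 38 kinesins tested, 4 with a positive and 3 with a negative difference. Over all genes 12.8% were called positive and 7.03% negative, so that 35.5% of calls were negative (49.5% with quantile normalization). The number of kinesins called was thus near the share over all genes. KIF21B fell in Nutlin and changed by -0.55 ± 0.26 when Nutlin was added to PD30, a difference of 1.62 ± 0.31 (adjusted p = 0.0028). KIF26B (-1.50 ± 0.29), KIF6 (-1.61 ± 0.35) and KIF5A (-0.70 ± 0.19) were raised by Nutlin alone. When Nutlin was added to PD30 they changed by 0.61, -0.25 and 0.17 and were not called in the main test. In PD30 alone, against DMSO, KIF26B (1.21), KIF6 (2.37) and KIF3C (0.43) were already higher. KIF21B (-1.92), KIF20B (-5.11), KIF5A (-0.54) and KIF26A were already lower there. For the mitotic kinesin KIF20B the interaction was 1.06 ± 0.30, with a smaller fall on top of PD30. KIF3C (0.47 ± 0.15) and KIF26A (2.72 ± 0.78) passed as well, the second on 11 counts in PD30 and 15 in N+PD30 and through the DMSO libraries in the filter. KIF5A lost its call without DMSO replicate 2 or 3, PD30 replicate 1 or N+PD30 replicate 2 (adjusted p up to 0.0575), KIF20B without Nutlin replicate 2, PD30 replicate 2 or 3 or N+PD30 replicate 2 (up to 0.0639), KIF26A without PD30 replicate 2 or N+PD30 replicate 1 (up to 0.0807), and KIF3C without any library but Nutlin replicate 3 or N+PD30 replicate 1 (up to 0.117). The count of calls was 11 without Nutlin replicate 1 and 4 without PD30 replicate 2. For 11 of the 12 mitotic kinesins other than KIF4B the interaction did not pass the test, with estimates from -0.31 (KIF4A) to 1.00 (KIF15).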

How the data were processed

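RNA was sequenced from 18 cultures of SJSA-1 cells, 3 in each of 6 groups named by the labels. Single reads of 50 bases were mapped by the authors (TopHat, Bowtie 2, build hg19) and assigned to genes by HTSeq 0.6.0 in its reverse-strand setting, and the deposited values for 5 groups are these counts, not normalized. For N+PD24 the deposited values are a signal, gene counts the authors had divided by a size factor, from which whole reads were recovered (100% of values whole at a tolerance of 0.01). Strandedness of the kit is not given in the sources used here. A further 12 per-sample columns were not used, nor were the authors' own fold changes and p-values. CPM was computed from each library's own total.

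Genes were tested with edgeR 4.0.16 in R 4.3.3 (TMM scaling, filterByExpr, quasi-likelihood test), and comparisons with N+PD24 with limma 3.58.1 on log2(TMM-scaled CPM + 0.5) for genes at 0.5 CPM or more in 3 libraries. The p-values were adjusted by the Benjamini-Hochberg method over all genes tested, in 8 pairwise comparisons and 1 interaction, and both tools were tested on simulated data. Alternatives were DESeq2 1.42.0, other scaling, no filter, a replicate block, a fold threshold and leaving out each library. For edgeR the SE was derived as the absolute log2 fold change divided by the square root of the test's F statistic. For limma it was the moderated SE of the fit. Intervals of count ratios are exact at 95% and cover counting error only. The replicate numbers of the labels were taken to pair samples where every pair of same-numbered libraries correlated above 0.1 in its deviations from the group means, a hint from the data. This held for PD24 vs DMSO (lowest r 0.10008), N+PD24 vs Nutlin (0.41153), PD24 vs PD30 (0.28376) and N+PD30 vs PD30 (0.19833). Libraries with different numbers were not compared in this way, so a pairing was not established. The main tests used no block, and calls made with it are an alternative only.

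The members, their roles and the partner lists were chosen with earlier results of these data known. The rule named with values every tested mitotic member and any other member called in at least 2 of 4 comparisons or called past a log2 fold change of 1. KIF1B, KIF9, KIF13A, KIFC2 and KIFC3 fall outside it and were named after their values were seen. Totals of 12704845 to 40231041 counts per library set the precision, and 28 gene rows with names turned into dates hold no member.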

Additional observations from a re-analysis of the deposited data

Results flagged for a closer look

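The response to Nutlin differed with PD0332991 present, by the interaction term of edgeR's test, for 7 of the 38 kinesins tested. Of all genes tested, 12.8% were called with a positive and 7.03% with a negative difference, and the number of kinesins called was near that share. KIF21B differed by 1.621 on the log2 scale (adjusted p = 0.0028), with a change of -2.12 for Nutlin alone and -0.55 when added to PD30. KIF26B differed by -1.504 (adjusted p = 0.00284, 2.16 and 0.61) and KIF6 by -1.612 (adjusted p = 0.00647, 1.41 and -0.25). KIF5A differed by -0.6983 (adjusted p = 0.0216, 0.92 and 0.17), and KIF20B by 1.06 (adjusted p = 0.0238, -1.09 and -0.08). KIF26A differed by 2.719 (adjusted p = 0.0255), with -1.44 for Nutlin alone and no test on top of PD30, where it had 11 counts in PD30 and 15 in N+PD30, and it passed the filter on low counts through the DMSO libraries. KIF3C differed by 0.4669 (adjusted p = 0.0465, -0.46 and -0.05). In PD30 alone, against DMSO, KIF26B (1.21), KIF6 (2.37) and KIF3C (0.43) were already higher. KIF21B (-1.92), KIF20B (-5.11), KIF5A (-0.54) and KIF26A were already lower there.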

How the results depend on the processing

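No result changed direction past its threshold under any alternative run, and the counts of mitotic calls against DMSO and Nutlin stayed within 1.5 times under all alternatives except the fold threshold, which left 7 in Nutlin vs DMSO. With an added absolute log2 fold change over 1, transport calls numbered 1 in PD30 vs DMSO, PD24 vs DMSO, N+PD30 vs Nutlin, N+PD24 vs Nutlin, PD24 vs PD30 and N+PD24 vs N+PD30, 2 in Nutlin vs DMSO and 0 in N+PD30 vs PD30, where 1 mitotic call was left. Over all 14982 to 15766 genes tested, the calls past that fold, lower and higher, were 1434 and 871 in PD30 vs DMSO. They were 1202 and 696 in PD24 vs DMSO, 1327 and 1950 in Nutlin vs DMSO, and 2184 and 1326 in N+PD30 vs Nutlin. N+PD24 vs Nutlin had 950 and 460, and PD24 vs PD30 had 519 and 618. N+PD24 vs N+PD30 had 682 and 781, and N+PD30 vs PD30 had 75 and 480. In N+PD30 vs PD30, DESeq2 called 4 mitotic and 5 transport kinesins. Over all 15077 genes it called 1173 lower and 1752 higher there, against 850 and 1333 in the main test. The replicate block gave 5 and 10 there and 8 transport calls in PD24 vs PD30. In the comparisons whose libraries share only a number, the block gave 10 interaction calls in place of 7. Over all 16113 genes it called 1533 negative and 2597 positive, against 1133 and 2060 in the main test. Leaving out 1 library at a time gave 4 to 7 transport calls in N+PD24 vs Nutlin, 2 to 6 in N+PD24 vs N+PD30, 0 to 3 in N+PD30 vs PD30 (mitotic 1 to 2) and 4 to 11 interaction calls. The cause of these changes was not tested beyond the fewer samples. Of single values, DESeq2 kept 314, with 12 gaining and 1 losing a call, quantile normalization kept 304 (12 and 10), scaling by total counts 319 (7 and 4), no filter 322 (3 and 5) and edgeR on recovered reads 69 (1 and 0). The replicate block kept 297 (31 and 2). The 2 calls it ended, by edgeR's test in N+PD30 vs Nutlin, were those of KIF16B (adjusted p = 0.0612) and KIF6 (adjusted p = 0.0531). Quantile normalization ended the calls of KIF3C, KIF5C and KIF6 in Nutlin, scaling by total counts those of KIF17 and KIF9 there, and no filter that of KIF16B in PD30. Counts of 0 to 33 per library limit KIF4B, KIF15, KIF18B and KIF26A in the groups with PD0332991.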
